A study of Saccharomyces cerevisiae with 22 samples.

Results

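The messenger RNA response of the laboratory yeast strain BY4741 to 15 min without glucose was described from its 6 RNA libraries. They are 6 of the 22 samples of a study that also made ribosome footprints and used another strain, and 6 of its 10 BY4741 samples. The libraries were taken by their labels: polyA RNA replicates 1 and 2 and total RNA replicate 1, each once with glucose and once without, so that 3 starved libraries faced 3 glucose libraries in 3 pairs. The pairs are called polyA pair 1, polyA pair 2 and the total RNA pair, and values given in threes follow that order.

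BY4741 is a haploid strain of Saccharomyces cerevisiae, mating type a, derived from the strain of the reference genome and carrying deletions in HIS3, LEU2, MET15 and URA3. Growth, at 30 °C and with glucose, was in synthetic complete medium up to an OD600 between 0.3 and 0.4. The glucose group was taken from that growth, and the starved group spent 15 min in the same medium without glucose. Both groups received 100 ug/ml cycloheximide, a drug that stalls ribosomes, for 1 min before harvest. PolyA RNA was selected with oligo-dT beads, while total RNA was not selected, and both were broken at 95 °C under mild alkali. The labels do not say which libraries came from 1 culture, so the p-values measure the spread between these libraries, which may be partly technical.

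Yeast ferments glucose by preference and, while glucose is present, represses genes for other carbon sources through the repressor Mig1, which the kinase Snf1 counteracts when glucose runs out. Glucose also keeps the Ras and protein kinase A pathway active, which holds back the stress activators Msn2 and Msn4 and favours the making of ribosomes. Removal of glucose is known for a fast and broad change of mRNA levels, a collapse of translation and the gathering of mRNA in cytoplasmic granules called P-bodies.

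The counts are reads in the later part of each coding sequence, called downstream in the deposited table, without its start. Totals ran from 5252923 to 7003745 counts in the 4 polyA libraries and were 2181052 and 1585550 in total RNA with and without glucose, so low levels were measured least precisely in total RNA. The 10 genes with most counts held 8.1%, 7.6% and 13.0% of the counts with glucose and 12.9%, 8.2% and 16.5% without. Mating type, a trait of the labelled strain, was compared with its markers, which cannot tell this strain from another of mating type a. Levels are in CPM, counts scaled to a library of 1000000, with TMM. With glucose, STE2, the receptor that cells of mating type a carry, stood at 702, 947 and 599 CPM. STE3, the receptor of the other mating type, stood at 9.39, 10.4 and 5.34 CPM there. HIS3 was at 106, 78.4 and 129 CPM with glucose and 82.5, 73.6 and 72.6 CPM without it, but the deletion carried by this strain removes only a part of that gene, so its level checks nothing. Of the 4 deleted genes only HIS3 was found in the counts by its listed name, so LEU2, MET15 and URA3 were not compared. None of the 8 mitochondrially encoded genes listed was found.

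Genes for import of scarce sugar and other carbon sources, storage carbohydrates, cytosolic protein folding and general stress defence were higher without glucose. Genes for making ribosomes were lower. The change was tested in 5319 genes with edgeR's quasi-likelihood test, with the pair as a block and Benjamini-Hochberg adjustment. At an adjusted p under 0.05, 846 genes rose (15.9%) and 746 fell (14%), together 29.9% of the genes tested. The rises reached further than the falls: 157 genes rose at least 4-fold and none fell that far, while 437 rose and 126 fell at least 2-fold. The sign was the same in all 3 pairs for 834 of the genes that rose and 733 of those that fell. All 3 starved libraries lay above all 3 glucose libraries for 598 genes (11.2%) and below them for 479 (9.01%).

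Levels are relative to each library's total, so a change in all mRNA per cell cannot be told apart from none. The response was widest in polyA pair 1. Over the genes that rose, the median log2 change was 1.34, 0.81 and 0.93 in the 3 pairs, and over those that fell it was -0.99, -0.42 and -0.83, whereas over all genes it was -0.01, -0.005 and -0.094. The genes that rose took 12.2%, 12% and 19.4% of the counts with glucose and 30.2%, 20.7% and 32.0% without. Those that fell went from 19.2%, 19.1% and 13.2% to 8.9%, 14.2% and 7.24%. Across genes, the changes in polyA pairs 1 and 2 correlated with r = 0.836, those of polyA pair 1 and the total RNA pair with r = 0.811, and those of polyA pair 2 and the total RNA pair with r = 0.789, each over 5319 genes, which are not independent of each other. With neither pair nor library kind in the fit 157 genes rose (2.95%) and 0 fell, with 490 and 214 at an unadjusted p under 0.05, whereas with library kind in place of the pair 691 rose and 480 fell. The fit with pairs called 418 and 141 without polyA pair 1 and 641 and 228 without the total RNA pair.

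**Figure D1:**
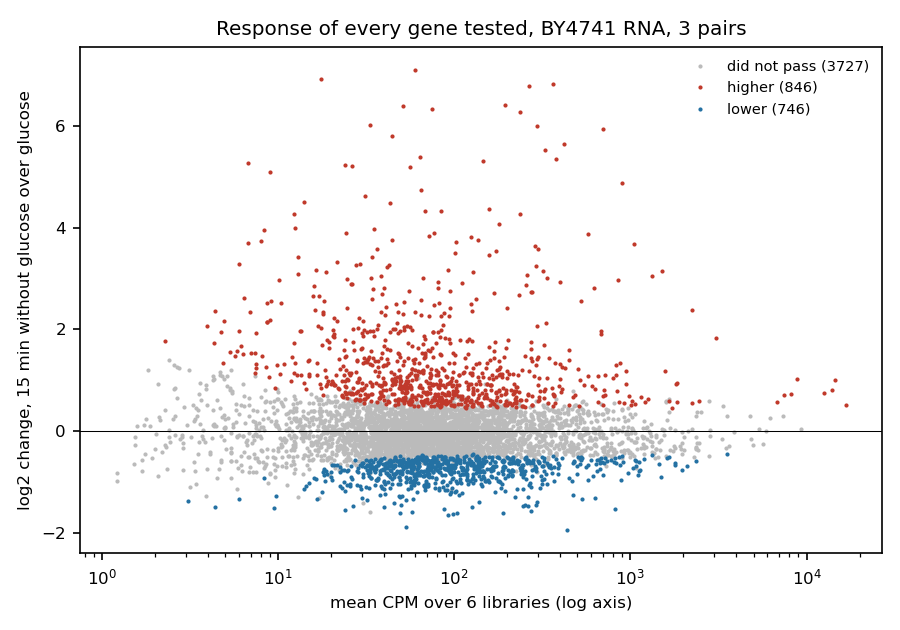
The log2 change of each of 5319 genes (vertical axis, 15 min without glucose over glucose, 3 pairs) is plotted against its mean level over the 6 libraries (CPM, log axis), with genes that rose in red, genes that fell in blue and the rest in grey. The 846 rises reach log2 changes of 6 to 7, while the 746 falls end at -1.96.

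The largest rise was that of YNL194C, a membrane protein of the SUR7 family that sits in eisosomes, the furrows of the plasma membrane. It was at 0.809, 1.11 and 0 CPM with glucose and at 109, 126 and 123 CPM without. In total RNA with glucose it had no count, which allows up to 1.6 CPM at that depth, and its starved libraries were all far above its glucose libraries. The fitted log2 change was 7.10 ± 0.31 (SE, 3 pairs, edgeR adjusted p = 4.84e-07). HSP30, a plasma membrane protein known to restrain the proton pump Pma1, went from 2.91, 5.43 and 10.7 CPM to 1147, 355 and 654 CPM, with a log2 change of 6.83 ± 0.48 (edgeR adjusted p = 8.74e-06). Its groups did not overlap, and its rise was steepest in polyA pair 1.

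The sequence before each of these genes is shown because short motifs there are known binding sites of the stress and ribosome regulators, together with that of ALB1, the ribosome assembly gene with the largest fall. Each sequence covers 300 bases from 400 to 101 before the coding start, in the direction of the gene, from the RefSeq genome of build R64, and capitals mark the motifs found on either strand. YNL194C lies on the minus strand of chromosome XIV (coding sequence chrXIV:272710-273615, sequence chrXIV:273716-274015). HSP30 lies on the minus strand of chromosome III (coding sequence chrIII:156109-157107, sequence chrIII:157208-157507). ALB1 lies on the plus strand of chromosome X (coding sequence chrX:189716-190243, sequence chrX:189316-189615).
YNL194C: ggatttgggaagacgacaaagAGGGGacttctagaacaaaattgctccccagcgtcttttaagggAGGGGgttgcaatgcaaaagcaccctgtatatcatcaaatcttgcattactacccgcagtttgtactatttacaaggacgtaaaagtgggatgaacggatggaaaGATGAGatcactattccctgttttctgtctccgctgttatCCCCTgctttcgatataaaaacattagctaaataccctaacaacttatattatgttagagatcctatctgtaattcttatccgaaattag
HSP30: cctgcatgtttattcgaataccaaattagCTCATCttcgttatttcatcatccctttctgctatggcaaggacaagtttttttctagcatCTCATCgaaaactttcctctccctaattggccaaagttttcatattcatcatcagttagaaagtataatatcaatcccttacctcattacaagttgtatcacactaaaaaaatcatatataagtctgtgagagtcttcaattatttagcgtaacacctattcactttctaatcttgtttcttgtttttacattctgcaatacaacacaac
ALB1: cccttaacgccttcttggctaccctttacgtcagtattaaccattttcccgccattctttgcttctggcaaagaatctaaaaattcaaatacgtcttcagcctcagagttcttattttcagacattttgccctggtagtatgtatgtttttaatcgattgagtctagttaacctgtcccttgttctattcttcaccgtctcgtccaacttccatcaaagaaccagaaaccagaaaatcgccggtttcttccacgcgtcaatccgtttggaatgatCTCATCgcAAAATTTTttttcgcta

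In YNL194C the capitals are 3 copies of the stress response element AGGGG, bound by Msn2 and Msn4, of which 1 is on the opposite strand, and 1 PAC motif GATGAG, bound by the repressors Dot6 and Tod6. In HSP30 they are 2 PAC motifs on the opposite strand, and the window holds neither the stress response element nor a heat shock element, the site of Hsf1, searched as the triplets GAA, TTC and GAA with 2 bases between them. In ALB1 they are 1 PAC motif on the opposite strand and 1 RRPE motif (AAAA followed by TTTT), the site of Stb3, which do not overlap. Of 5318 windows of the same length before tested genes, 23.8% held AGGGG, 18.3% GATGAG, 9.7% the RRPE motif, 1.1% the heat shock element and 4.4% the carbon source response element (CGG and GGA with 6 bases between them), the site of Cat8 and Sip4. The windows of HXT6, RPS28B and YHP1, which also head the rises and falls, held none of the 5.

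AGGGG stood before 48.3% of the genes that rose, before 67.5% of the 157 that rose at least 4-fold and before 14.2% of those that fell. The PAC motif stood before 32.7% of the genes that fell and 13.4% of those that rose, and the RRPE motif before 26.7% and 3.2%. Before the 105 ribosome assembly genes the shares were 68.6% for PAC and 72.4% for RRPE. The heat shock element stood before 10 of 27 chaperone genes, 37.0%, and the carbon source response element before 7.3% of the genes that rose. These shares describe letters in a window and say nothing on binding. The genes that rose and fell were alike in coding length, with medians of 1296 and 1275 bases against 1266 over all tested, and an intron was annotated in 2.8%, 6.8% and 4.7%.

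The other large rises included transporters for other carbon sources. JEN1, the permease for lactate and pyruvate, went from 3.08, 7.03 and 3.74 CPM to 283, 620 and 257 CPM (log2 change 6.41 ± 0.22, edgeR adjusted p = 3.56e-07). It was highest in polyA pair 2, unlike HSP30, and its groups did not overlap. ADY2, an acetate transporter, rose by 6.40 ± 0.26 on the log2 scale, and GSY1, a glycogen synthase, by 6.01 ± 0.30, from 6.31, 11.0 and 9.07 CPM to 692, 437 and 609 CPM. TMA10, a ribosome-associated protein of the stress response, rose by 6.79 ± 0.29, RGI1, needed for energy metabolism in respiring cells, by 6.28 ± 0.23, SPG4, known for survival in stationary phase, by 6.03 ± 0.27, and ISF1 by 6.33 ± 0.26. None of these 7 genes had a glucose library above a starved one.

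**Figure D2:**
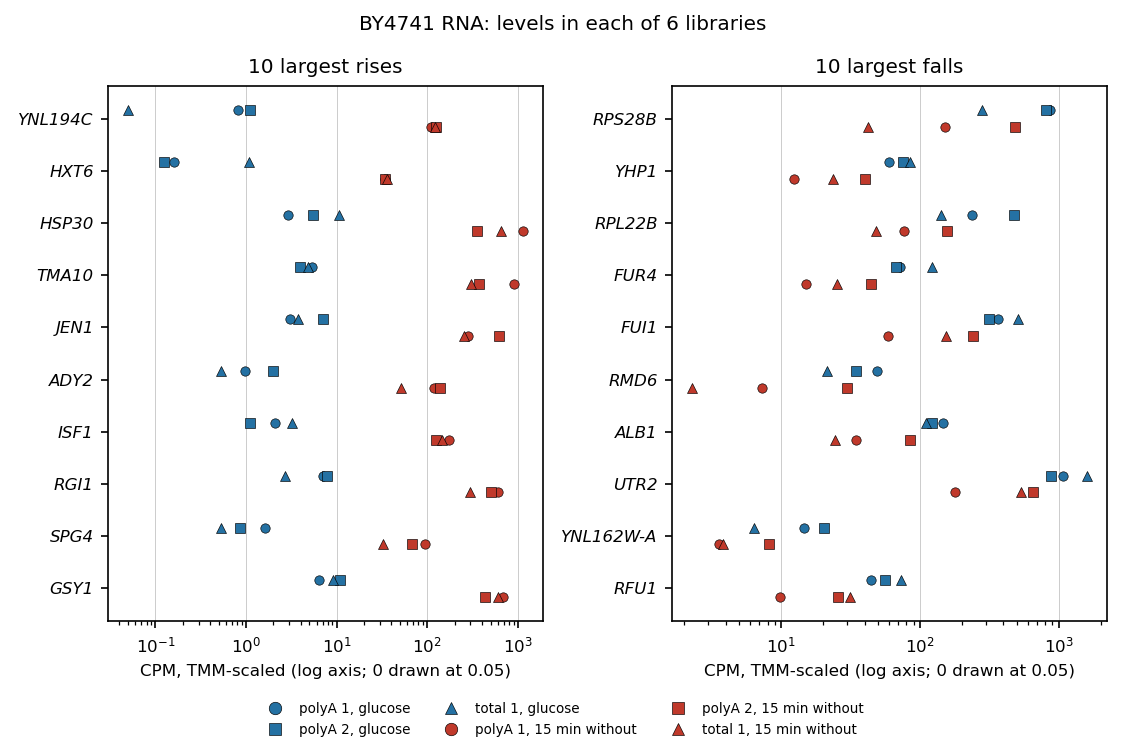
Levels of the 10 largest rises and the 10 largest falls are shown in each library (horizontal log axis, TMM-scaled CPM), in blue with glucose and in red after 15 min without it, with a symbol for each pair. The colours are far apart for every rise, while for the falls polyA pair 2 lies closest to its glucose partner in most genes and RPS28B, RPL22B, RMD6 and YNL162W-A overlap.

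Sugar uptake was measured over 9 hexose transporters, of which 6 rose and none fell, with a median log2 change of 2.86 against -0.04 over all genes. HXT2, a high-affinity transporter, went from 273, 236 and 433 CPM to 3111, 2046 and 3003 CPM (log2 change 3.14 ± 0.19, edgeR adjusted p = 4.25e-06), with no overlap. HXT4 rose by 3.77 ± 0.30, and HXT3, a low-affinity transporter that shares some sequence with others, by 1.01 ± 0.16. HXT1, the low-affinity transporter of high glucose, which also shares sequence, stood at 114, 126 and 203 CPM before and 141, 163 and 336 CPM after, and did not pass (edgeR adjusted p = 0.0549). HXT6 and HXT7 had log2 changes of 6.93 ± 0.45 and 5.39 ± 0.28 but are near-identical copies, with 96% of the 28-base words of HXT6 found elsewhere in the genome, so how the counting split them is uncertain. HXT6 rested on 1, 1 and 2 counts with glucose.

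All 4 hexose kinases, which trap sugar in the cell as its phosphate, rose. HXK1 went from 17.6, 21.5 and 27.2 CPM to 1863, 991 and 1282 CPM (log2 change 5.94 ± 0.29, edgeR adjusted p = 8.96e-07). EMI2 rose by 3.65 ± 0.23 and GLK1 by 3.01 ± 0.21. HXK2, the main kinase of growth on glucose, went from 1225, 958 and 1502 CPM to 2647, 1584 and 2915 CPM, a log2 change of 0.93 ± 0.16, again with no overlap of the groups.

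Of 13 sensors and repressors of glucose 6 rose and 1 fell, against 15.9% and 14% of all genes. MTH1, a co-repressor of the HXT genes that glucose destabilises, went from 5.18, 3.95 and 4.27 CPM to 121, 107 and 148 CPM (log2 change 4.74 ± 0.20, edgeR adjusted p = 4.71e-07). The high-affinity sensor SNF3 rose by 1.94 ± 0.20, whereas the low-affinity sensor RGT2 fell by 0.73 ± 0.21. Its levels were 38.7, 38.1 and 98.2 CPM before and 21.6, 32.3 and 42.0 CPM after, so its groups overlapped although each pair went down. The repressor MIG1 rose by 1.76 ± 0.17, MIG2 by 1.00 ± 0.32, MIG3 by 0.92 ± 0.23 and RGT1 by 0.70 ± 0.23, while STD1, the paralogue of MTH1, was at -0.40 ± 0.19 and did not pass.

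Of the 8 genes of the Snf1 kinase and its activators, 3 rose and 1 fell. SIP2, a beta subunit, rose by 1.40 ± 0.22, from 12.5, 16.5 and 17.6 CPM to 44.0, 36.3 and 41.3 CPM, and GAL83, another, by 0.54 ± 0.16. The catalytic SNF1 rose by 0.50 ± 0.16 and the activating kinase SAK1 fell by 0.60 ± 0.17. In the Ras and protein kinase A pathway 10 of 18 genes rose and 3 fell. The catalytic subunit TPK2 rose by 1.99 ± 0.21, whereas TPK3, another, fell by 0.98 ± 0.22. TPK3 was at 103, 110 and 59.8 CPM with glucose and 34.0, 73.7 and 35.9 CPM without, lower in each pair. The regulatory subunit BCY1, which holds the kinase inactive, rose by 1.06 ± 0.21 and the kinase YAK1, which acts against this pathway and whose coding sequence overlaps another annotated gene, by 1.39 ± 0.19, while PDE2, which breaks down cAMP, fell by 0.60 ± 0.18.

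Among 13 activators of respiratory carbon use, 6 rose and 1 fell. CAT8, the activator of gluconeogenic genes, went from 2.43, 4.07 and 17.6 CPM to 61.7, 68.9 and 110 CPM (log2 change 3.76 ± 0.33, edgeR adjusted p = 3.35e-05). HAP4, the regulated subunit of the activator of respiratory genes, went from 17.3, 23.6 and 45.9 CPM to 313, 236 and 402 CPM (3.54 ± 0.23), and ADR1, the activator of ADH2 and of peroxisomal genes, rose by 2.74 ± 0.30. No glucose library of these 3 genes reached a starved one. HAP2 rose by 0.77 ± 0.25, while HAP3 and HAP5, the partners of HAP4, were at -0.15 ± 0.25 and 0.56 ± 0.29 and did not pass, nor did SIP4 at 0.27 ± 0.49.

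Genes for the use of other carbon sources rose to very different extents at 15 min. Of 18 genes of peroxisomal fatty acid oxidation 14 rose and none fell (median 1.42), with POX1, the first enzyme of the pathway, at 0.648, 0.864 and 3.20 CPM before and 47.9, 33.6 and 57.3 CPM after, a log2 change of 5.23 ± 0.35. Of 12 genes for lactate, acetate and carnitine 9 rose and 1 fell (median 1.98). Of 11 gluconeogenic and glyoxylate cycle genes only 4 rose, with a median of 0.61: PCK1, the committed enzyme of gluconeogenesis, went from 5.67, 7.03 and 4.27 CPM to 11.5, 14.1 and 10.7 CPM, a log2 change of 1.06 ± 0.29. ICL1, of the glyoxylate cycle, rose by 1.34 ± 0.28 and its partner MLS1 stood at 0.66 ± 0.53 and did not pass. Among 8 genes for other sugars 2 rose, SUC2, the secreted invertase, by 2.50 ± 0.23, and GAL4, whose coding sequence overlaps another annotated gene, by 2.15 ± 0.38.

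The respiratory genes rose in number and moderately in size. Of 17 genes of the TCA cycle 13 rose and none fell (median 0.82), and of 35 nuclear genes of the respiratory chain and ATP synthase 18 rose and none fell (median 0.47). SDH1, a subunit of succinate dehydrogenase, went from 10.8, 11.1 and 56.6 CPM to 111, 49.6 and 219 CPM (log2 change 2.48 ± 0.26). Total RNA was higher than polyA RNA in both conditions, so its groups overlapped although each pair rose. CYC7, the minor form of cytochrome c, rose by 3.75 ± 0.36. The respiratory chain count was 6 without polyA pair 1 and 10 without the total RNA pair, and it was 14 with library kind in place of the pair and 2 with neither.

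Of 16 glycolytic genes 13 rose and none fell (median 0.74). PGK1, phosphoglycerate kinase, went from 4855, 4040 and 8639 CPM to 14755, 6903 and 14030 CPM, a log2 change of 1.02 ± 0.19 (edgeR adjusted p = 0.00489), higher in each pair with overlapping groups. The whole list went from 5.54%, 4.88% and 7.84% of the counts to 11.5%, 6.76% and 10.8%. PYK2, a pyruvate kinase of slow glycolysis, rose by 2.54 ± 0.22 and the main form CDC19 by 0.76 ± 0.20. TDH1 and ENO1, at 3.87 ± 0.31 and 3.06 ± 0.33, share sequence with other TDH and ENO genes and are uncertain. Of 11 genes of fermentation and aldehyde oxidation 5 rose and 2 fell: ALD4, the mitochondrial aldehyde dehydrogenase, rose by 2.94 ± 0.26, ADH2, which oxidises ethanol, had 3.32 ± 0.24 and ADH1, which makes it, -0.60 ± 0.16, both with shared sequence.

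**Figure D3:**
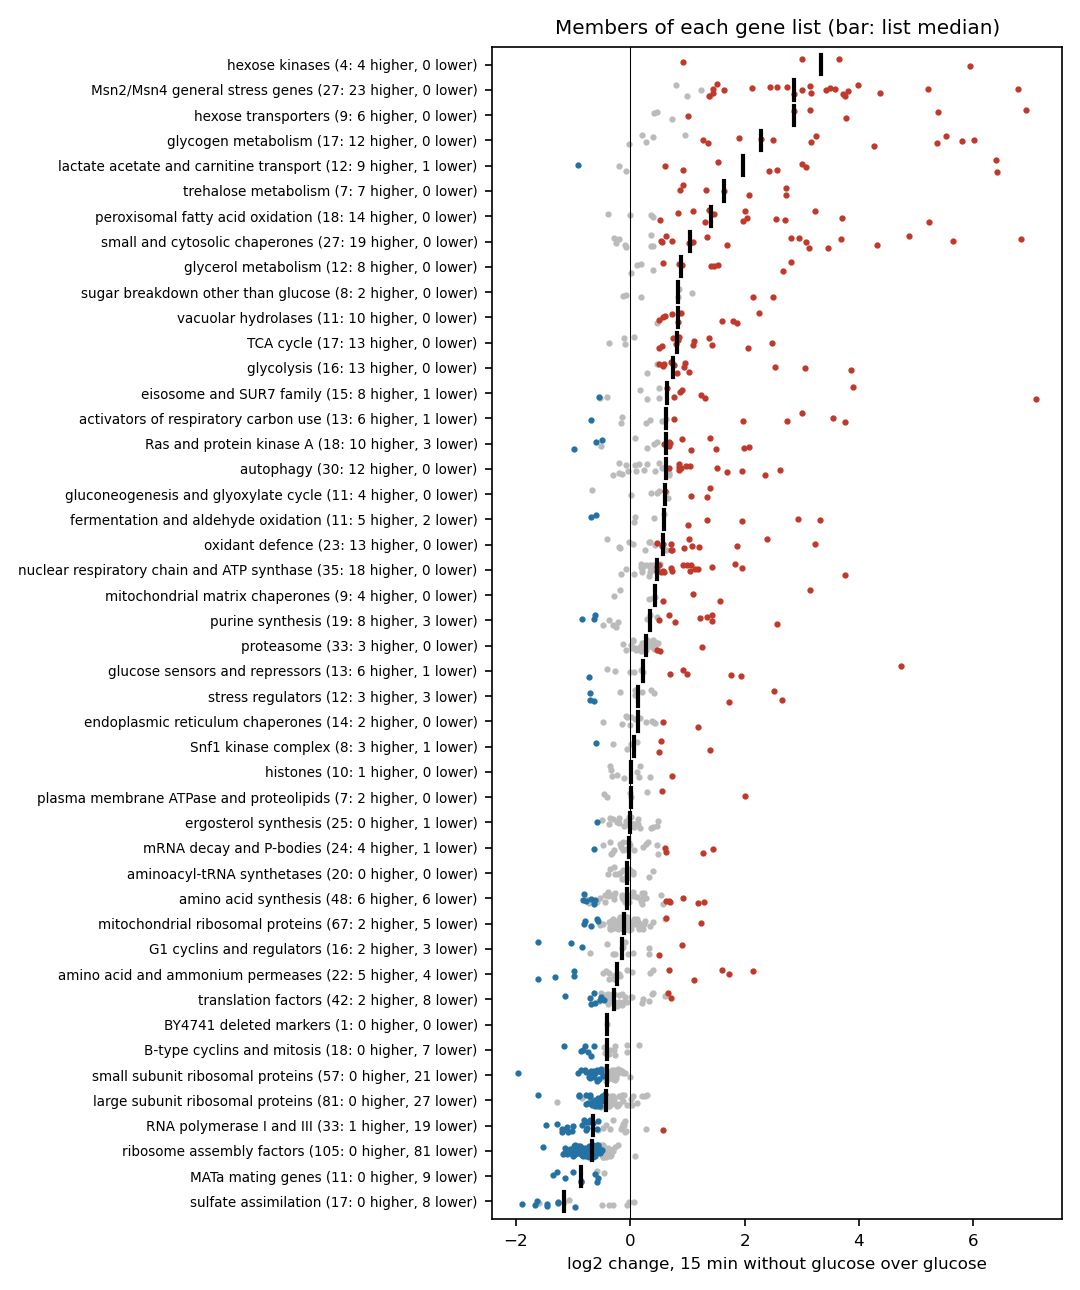
Each point is a gene placed by its log2 change (15 min without glucose over glucose), in rows by gene list, in red where it rose, in blue where it fell and in grey where it did not pass, with a black bar at the list median. Hexose kinases, with a median of 3.33, stand at the top and sulfate assimilation, at -1.16, at the bottom, and of the 105 ribosome assembly genes all but 1 lie below 0.

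Storage carbohydrate genes were among the strongest groups. Of 17 glycogen genes 12 rose and none fell (median 2.28), in both directions of the pathway: the branching enzyme GLC3 went from 17.5, 19.6 and 16.5 CPM to 819, 657 and 755 CPM (log2 change 5.36 ± 0.21) and the phosphorylase GPH1, which breaks glycogen down, from 6.64, 11.7 and 33.1 CPM to 650, 623 and 636 CPM (5.53 ± 0.40). Neither overlapped. GAC1, a regulatory subunit that directs the phosphatase Glc7 to glycogen synthase, rose by 5.81 ± 0.32. All 7 trehalose genes rose (median 1.64), the makers TPS1 by 2.07 ± 0.25, TPS2 by 2.73 ± 0.21 and TSL1 by 2.72 ± 0.18, and the trehalases NTH1 by 0.93 ± 0.16, NTH2 by 0.87 ± 0.16 and ATH1 by 1.33 ± 0.20. Of 12 glycerol genes 8 rose and none fell, with GPD1, the first enzyme of glycerol synthesis, at 2.67 ± 0.26 and the water channel AQY3 at 2.81 ± 0.23.

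Of 27 general stress genes, mostly targets of Msn2 and Msn4, 23 rose and none fell, with a median of 2.87. HSP12, a membrane-protecting protein, went from 17.2, 22.0 and 10.1 CPM to 227, 243 and 90.1 CPM (log2 change 3.50 ± 0.19, edgeR adjusted p = 2.3e-06), and CTT1, the cytosolic catalase, from 12.6, 14.7 and 13.9 CPM to 238, 126 and 211 CPM (3.73 ± 0.25). Every starved library was above every glucose library for both. DDR2 rose by 5.21 ± 0.33. Of the regulators themselves, MSN4 rose by 1.73 ± 0.20, while MSN2, at 37.6, 49.4 and 138 CPM before and 48.3, 55.5 and 144 CPM after, had 0.20 ± 0.16 and did not pass. The repressor XBP1 rose by 2.66 ± 0.28 and GIS1 by 2.51 ± 0.25, and HOT1, RPH1 and SKN7 fell by 0.70 ± 0.19, 0.63 ± 0.18 and 0.71 ± 0.16.

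Of 27 genes listed as small and cytosolic chaperones 19 rose and none fell (median 1.05). That list also counts HSP30, the plasma membrane protein with the largest rise in it. In the mitochondrial matrix 4 of 9 chaperone genes rose (median 0.44). In the endoplasmic reticulum 2 of 14 rose (14.3%, median 0.13), a share near the 15.9% of all genes. HSP42, a small heat shock protein that gathers misfolded proteins, went from 12.1, 13.0 and 16.0 CPM to 1240, 287 and 952 CPM (log2 change 5.65 ± 0.40). BTN2, a sorting factor for misfolded proteins, rose by 4.88 ± 0.36, HSP26 by 4.32 ± 0.29, the disaggregase HSP104 by 3.68 ± 0.27 and SSA4, a stress-induced Hsp70, by 3.08 ± 0.30. The constitutive SSB1 and SSB2, which serve new chains on the ribosome, were at -0.07 ± 0.17 and -0.10 ± 0.15 and did not pass, and as near copies of each other they are uncertain. Neither did HSF1, the heat shock activator, at 0.36 ± 0.20.

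These genes differed between the pairs, as did all genes that rose, whose median log2 changes were 1.34, 0.81 and 0.93. The chaperone list took 0.89%, 0.859% and 1.25% of the counts with glucose and 2.55%, 1.35% and 2.19% without, with median log2 changes of 1.16, 0.59 and 1.20, so that polyA pair 2 was the low one. HSP78, the disaggregase of the mitochondrial matrix, showed the same order, from 67.3, 74.5 and 46.4 CPM to 771, 388 and 559 CPM (3.14 ± 0.26). KAR2, the Hsp70 of the endoplasmic reticulum, rose by 1.18 ± 0.19.

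Of 11 vacuolar hydrolase genes 10 rose and none fell (median 0.83), led by APE1, aminopeptidase I, at 2.26 ± 0.26. Of 30 autophagy genes 12 rose and none fell (median 0.63): ATG8, whose protein coats the autophagosome, went from 15.7, 14.1 and 6.40 CPM to 96.6, 51.5 and 45.1 CPM, a log2 change of 2.35 ± 0.23, without overlap. ATG39, the receptor for engulfing parts of the nucleus, rose by 2.62 ± 0.38. Of 33 proteasome genes 3 rose, a smaller share than the 15.9% of all genes, among them RPN4, the activator of the others, by 1.26 ± 0.17, and the list median was 0.27. Of 23 oxidant defence genes 13 rose and none fell, with the peroxisomal catalase CTA1 at 3.23 ± 0.28. Of 24 genes of mRNA decay and P-bodies 4 rose and 1 fell (median -0.03), a share of rises near that of all genes, with DCS1, a scavenger of mRNA caps, at 1.45 ± 0.19 and EDC2, an activator of decapping, at 1.28 ± 0.21.

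**Figure D4:**
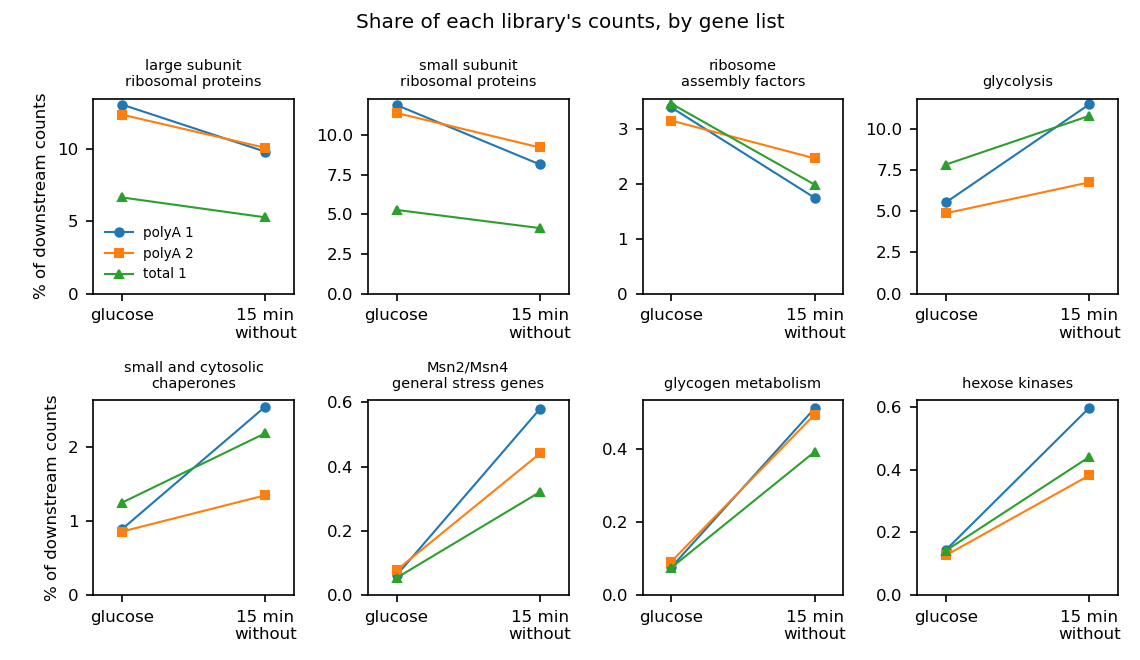
Lines join the share of each library's downstream counts (vertical axes, percent, from 0) held by 8 gene lists with glucose and after 15 min without it, for the 3 pairs. Ribosomal protein genes hold 13.1% and 12.4% of polyA counts but 6.66% of total RNA counts for the large subunit, and the starved chaperone and glycolysis shares are lowest in polyA pair 2.

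The largest falls were smaller than the largest rises. RPS28B, a protein of the small ribosomal subunit, went from 865, 815 and 279 CPM to 151, 482 and 42.0 CPM (log2 change -1.96 ± 0.34, edgeR adjusted p = 0.00312). Each pair went down, by 2.51, 0.76 and 2.72 on the log2 scale, but the groups overlapped because total RNA with glucose lay below polyA pair 2 without it. RPL22B, of the large subunit, fell by 1.61 ± 0.16 and evenly, by 1.63, 1.61 and 1.55 in the 3 pairs. The uracil permease FUR4 fell by 1.60 ± 0.31 and the uridine permease FUI1 by 1.57 ± 0.35, and FUI1 went from 364, 316 and 513 CPM to 59.2, 239 and 154 CPM without overlap. UTR2, a cell wall enzyme, fell by 1.53 ± 0.34, RFU1, an inhibitor of the ubiquitin hydrolase Doa4, by 1.49 ± 0.23, RMD6 by 1.56 ± 0.47 and YNL162W-A had a log2 change of -1.51 ± 0.32.

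Ribosome assembly was the group with the highest count of falls: 81 of 105 assembly genes fell and none rose, with a median of -0.67. ALB1, which accompanies the large subunit out of the nucleus, went from 147, 123 and 112 CPM to 34.4, 84.3 and 24.4 CPM (log2 change -1.53 ± 0.30, edgeR adjusted p = 0.00597). RRS1 fell by 1.17 ± 0.20 and NSR1, a nucleolar protein, from 1218, 804 and 1490 CPM to 438, 727 and 614 CPM, by 0.97 ± 0.25. ALB1 and NSR1 did not overlap, and in both polyA pair 2 lost least. The list median was -0.92, -0.32 and -0.86 in the 3 pairs and its share of the counts went from 3.40%, 3.16% and 3.47% to 1.75%, 2.47% and 1.99%. The count of falls was 74 without polyA pair 2, 22 without polyA pair 1 and 22 without the total RNA pair, with medians of -0.82, -0.57 and -0.62. It was 67 with library kind in place of the pair and 0 with neither.

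The polymerases that make ribosomal and transfer RNA followed, with 19 of 33 genes lower, 1 higher and a median of -0.65. RPA12, a subunit of RNA polymerase I, went from 83.2, 63.7 and 71.0 CPM to 17.5, 45.9 and 18.3 CPM, a log2 change of -1.47 ± 0.31, and RRN11, a factor for its initiation, fell by 1.28 ± 0.27. Neither overlapped. The gene that rose, TFC3 of transcription factor IIIC, had 0.57 ± 0.18. The count of falls was 4 without polyA pair 1 and 10 without the total RNA pair.

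Ribosomal protein genes fell little. Of 81 genes of the large subunit 27 fell and none rose (median -0.42), and of 57 of the small subunit 21 fell and none rose (median -0.41). RPS27A went from 720, 649 and 385 CPM to 284, 463 and 201 CPM (log2 change -0.92 ± 0.20), each pair lower with overlapping groups. RPL14B, at -0.89 ± 0.21, shares sequence with its copy. By shared sequence or overlap 52 of the 81 and 27 of the 57 are uncertain. Without the total RNA pair only 2 and 1 of these genes passed, with medians of -0.42 and -0.39, and without polyA pair 1 the counts were 7 and 4. Mitochondrial ribosomal proteins, 67 genes, had a median of -0.11 with 5 lower (7.5%) and 2 higher (3.0%). Both shares were below the 14% and 15.9% of all genes. MRP8, listed there by its name alone, rose by 1.23 ± 0.17.

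Of 42 translation factors 8 were lower (19.0%) and 2 higher (4.8%), against 14% and 15.9% of all genes. SUI1, which helps to find the start codon, was at -1.14 ± 0.27 and EAP1, a repressor of cap-dependent translation, at 0.72 ± 0.20. The count of falls was 9 without polyA pair 2, 0 without polyA pair 1 and 0 without the total RNA pair. None of 20 aminoacyl-tRNA synthetase genes passed, and the extremes were DPS1 at 0.39 ± 0.19 (edgeR adjusted p = 0.141) and MES1 at -0.39 ± 0.16 (edgeR adjusted p = 0.0883).

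Mating genes fell, 9 of 11, with a median of -0.86. STE2, the receptor for alpha factor, went from 702, 947 and 599 CPM to 168, 514 and 278 CPM, a log2 change of -1.35 ± 0.23, and BAR1, the protease that degrades alpha factor, fell by 1.29 ± 0.28. Neither overlapped. MFA1 and MFA2, the genes of the a pheromone, fell by 0.86 ± 0.21 and 1.01 ± 0.23. The count was 3 without polyA pair 1, 5 without polyA pair 2 and 6 without the total RNA pair.

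Of 16 G1 cyclins and regulators 3 fell and 2 rose, against 14% and 15.9% of all genes. YHP1, a repressor of genes of early G1, went from 60.2, 75.0 and 84.8 CPM to 12.4, 40.3 and 23.7 CPM (log2 change -1.61 ± 0.26), and FAR1, the inhibitor of the G1 kinase, fell by 1.04 ± 0.17. The cyclin PCL1 fell by 0.84 ± 0.16, while the G1 cyclins CLN1, CLN2 and CLN3, at -0.13 ± 0.17, -0.15 ± 0.15 and -0.26 ± 0.21, did not pass. WHI5, which holds back the start of the cycle, rose by 0.91 ± 0.30. Of 18 B-type cyclin and mitosis genes 7 fell and none rose, with the mitotic cyclin CLB2 at -1.16 ± 0.25 and the kinase CDC5 at -0.86 ± 0.19. The count of falls was 1 without polyA pair 1, 3 without the total RNA pair and 5 with library kind in place of the pair. Of 10 histone genes only the linker histone HHO1 passed, at 0.73 ± 0.18.

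Biosynthesis was mixed. Of 19 purine genes 8 rose (42.1%) and 3 fell (15.8%). ADE17, of the last steps to IMP, went from 86.0, 178 and 153 CPM to 846, 358 and 1533 CPM (log2 change 2.56 ± 0.42). ADE2 rose by 1.43 ± 0.28 and ADE1 by 1.43 ± 0.26. The falls were those of PRS3, PRS4 and PRS5, which make the precursor PRPP, by 0.85 ± 0.22, 0.61 ± 0.17 and 0.64 ± 0.20. Without polyA pair 1 the purine list had 3 rises and 0 falls. It had 6 and 0 without the total RNA pair, and 9 and 3 without polyA pair 2. In amino acid synthesis 6 of 48 rose and 6 fell, 12.5% each way, against 15.9% and 14% of all genes. The list median was -0.06, with SHM2 at 1.29 ± 0.25 and GDH1 at 1.18 ± 0.27. Of 25 ergosterol genes 1 passed, ERG11, at -0.59 ± 0.19. Of 22 amino acid and ammonium permeases 5 rose (22.7%) and 4 fell (18.2%). PUT4, for proline, rose by 2.14 ± 0.35 and AGP1, of broad range, by 1.60 ± 0.18. The falls were those of MMP1, MUP1, BAP3 and SAM3, whose changes in polyA pair 2 were 0.19, 0.20, 0.07 and 0.07. Their count was 1 with DESeq2's size factors in edgeR and 0 without polyA pair 1 or without the total RNA pair.

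In the membrane, 8 of 15 eisosome genes rose and 1 fell, with FMP45, another SUR7 family member, at 3.89 ± 0.36. Of 7 genes listed with the proton pump, 2 rose and none fell. They were YRO2, by 2.01 ± 0.20, and PMP3, by 0.56 ± 0.17, and neither encodes the pump.

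The genes that bring sulfur into methionine and cysteine differed between the pairs. SUL1, a sulfate permease on chromosome II (chrII:789235-791814, plus strand), went from 83.5, 35.2 and 135 CPM with glucose to 8.84, 43.1 and 12.2 CPM without. Its log2 change was -3.18 in polyA pair 1, 0.29 in polyA pair 2 and -3.42 in the total RNA pair. STR3, cystathionine beta-lyase, went from 172, 74.9 and 162 CPM to 20.5, 92.2 and 30.6 CPM, and MET3, ATP sulfurylase, from 467, 234 and 368 CPM to 60.7, 267 and 119 CPM. In all 3 genes polyA pair 2 was the lowest of the glucose libraries and the highest of the starved ones, so the groups overlapped.

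The whole list of 17 sulfate assimilation genes had a median change of -2.26, 0.25 and -1.56 in the 3 pairs. Over all pairs 8 of the 17 fell and none rose, a count that rests on the setting: it was 12 without polyA pair 2, 0 without polyA pair 1, 0 without the total RNA pair and 0 with DESeq2's size factors in edgeR. A comparison of polyA pair 2 with the other pairs, prompted by these same values and resting on 1 pair and 1 residual degree of freedom, called 13 genes with a higher change there (0.244% of those tested) and 1 with a lower change (0.0188%). Of the 14, 9 were on the sulfate assimilation list, MUP1 and MMP1 carry methionine and S-methylmethionine into the cell, and MHT1 and MET1 serve the same pathway. SUL1 had the largest difference, 3.62 ± 0.43 on the log2 scale. The gene with a lower change was ADE17, at -2.30 ± 0.38, whose rise was 1.01 in polyA pair 2 and 3.29 and 3.32 in the others.

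Counted another way, 538 genes changed at least 2-fold in the same direction in polyA pair 1 and the total RNA pair, and 32 of them had the opposite sign in polyA pair 2. Of these, 11 were on the sulfate assimilation list and 4 on the list of amino acid and ammonium permeases (BAP3, MMP1, MUP1 and SAM3). The same count was 11 of 331 for the total RNA pair and 0 of 280 for polyA pair 1. PolyA pair 1 and the total RNA pair share the replicate number 1 in the labels, and whether they share a culture is not stated, so what sets polyA pair 2 apart was not tested. The same test for polyA pair 1 called 122 genes higher (2.29%) and 81 lower (1.52%), but 0 and 0 with DESeq2's size factors in edgeR, so no gene is named from it.

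**Figure D5:**
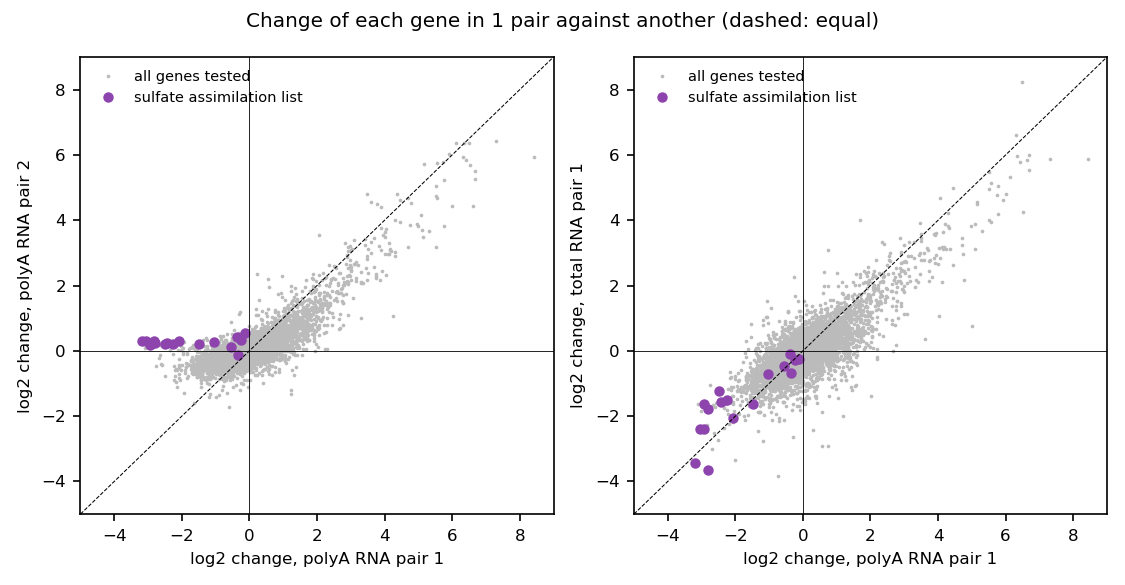
The log2 change of each gene in polyA pair 1 (horizontal axes) is plotted against that in polyA pair 2 (left) and in the total RNA pair (right), with the sulfate assimilation list in purple and a dashed line of equal change. On the left most purple points lie far to the left at a height near 0.25, the list median in polyA pair 2. On the right most lie below 0 on both axes, with list medians of -2.26 in polyA pair 1 and -1.56 in total RNA.

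PolyA selection can miss mRNA with short tails, and total RNA does not depend on the tail, so the kinds were compared. Genes called in the 4 polyA libraries alone numbered 641 higher (12.1%) and 228 lower (4.29%). In the total RNA pair, which took no part in those calls, 609 of the 641 (95%) were also higher and 226 of the 228 (99.1%) also lower, while 43.6% of all genes were higher and 56.4% lower there. The median change was 1.32 in polyA and 1.13 in total RNA for the first set and -0.96 and -0.92 for the second. With a single total RNA pair, this is a description.

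A term for the difference of total RNA from polyA RNA in the change without glucose called 0 genes higher (0%) and 1 lower (0.0188%) with edgeR, while 26 and 108 had an unadjusted p under 0.05, and limma-voom called 0 and 0. The call was also lost under 5 of the other alternatives run. The gene called was YGR067C, which encodes a putative zinc finger protein and lies on chromosome VII (chrVII:622372-624786, minus strand). It was at 1.46 and 2.84 CPM in polyA RNA and 45.9 CPM in total RNA with glucose, and at 22.4, 76.6 and 58.8 CPM without. PolyA RNA was therefore much higher without glucose in both pairs, and total RNA hardly moved from a level that was already high. The change in total RNA was lower by 4.09 ± 0.52 on the log2 scale (edgeR adjusted p = 0.0225). EEB1, ZAP1 and FRE1, the nearest in the other direction, did not pass. For other genes these data cannot tell a like response from a different one, since the term has 1 residual degree of freedom.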

How the data were processed

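RNA was measured in 6 BY4741 libraries, built by polyA tailing of 28-base fragments, per the labels' protocols. Reads were aligned with Bowtie 0.12.8 to build R64, per the submitters' processing notes. The counting program, the annotation, strand use and the handling of reads with several matches are not stated in the sources used here. The authors deposited whole-number counts for 5381 genes, per the file headers, for an initiation and a downstream region. The 20 blank cells of starved total RNA were read as 0. The other 60 per-sample columns were not used. Of the identifiers 5380 matched the R64 annotation, which gave the coordinates, since the table's own positions equal it for only 759 genes.

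Downstream counts were tested with edgeR 4.0.16 (quasi-likelihood, TMM, R 4.3.3) on pair and condition, for genes with at least 10 counts in at least 3 libraries, and p-values were Benjamini-Hochberg adjusted over all genes tested. SE is the absolute log2 change over the root of F. Changes by pair used a prior count of 2. Floors (3 counts) cover counting error only. A gene was called uncertain where at least 10% of its 28-base words occur elsewhere or another gene covers at least 10% of its coding sequence, which held for 227 tested genes. The tests were checked on simulated counts.

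The pairing comes from the library kind and replicate number in the labels. Deviations from the condition means correlated within the pairs at 0.647, 0.714 and 0.899, mostly through library kind, since the polyA libraries alone gave 0.148. The glucose library of polyA replicate 1 correlated more with the starved library of replicate 2 (0.691) than with its own partner (0.647). PolyA replicates 1 and 2 differed beyond sampling noise (chi-square per degree of freedom 23.69 with glucose and 76.82 without). Alternatives were other scalings, filters, DESeq2 1.42.0, limma-voom (limma 3.58.1), no block, both regions summed and leaving out libraries. Named genes were the 10 largest rises and falls that passed, had 1 sign in 3 pairs and a mean of at least 5 CPM, the 2 largest passing changes of each of 48 lists, the genes of the kind term, and others named by role after their values were seen. Of these, 1 list and 1 other gene are not reported here. Members and lists were chosen with earlier results of these data known.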

Additional observations from a re-analysis of the deposited data

Results flagged for a closer look

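YGR067C was the gene whose change without glucose differed between the kinds of library in the test of the difference itself. Its change in total RNA minus its change in polyA RNA was -4.09 on the log2 scale. In polyA RNA it went from 1.46 and 2.84 CPM to 22.4 and 76.6 CPM, and in total RNA from 45.9 to 58.8 CPM. The call was lost with library size alone, with DESeq2's size factors in edgeR, with 10 counts in all 6 libraries, with limma-voom, without the replicate block and with both regions summed. The total RNA values come from 1 library per condition, and the strand used in counting is not given.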

How the results depend on the processing

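Without the replicate block, and so without library kind, the response had 157 genes higher and 0 lower, and no gene that passed in the response changed sign there or under any other alternative run. With library kind as covariate and no replicate block 691 genes were higher and 480 lower. Leaving out a pair, or a polyA library in that fit with library kind, gave 290 to 1066 genes higher and 16 to 885 lower. Both ends came from single libraries in the fit with library kind, the low end without the glucose library of polyA replicate 1 and the high end without the starved library of polyA replicate 2. Without polyA replicate 1 the counts were 418 and 141, and without total RNA 641 and 228. The other scalings, filters and tools moved neither count by more than 1.5 times.

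The total RNA against polyA RNA term called 0 genes lower with library size alone, with DESeq2's size factors in edgeR, with 10 counts in all 6 libraries, with limma-voom, without the replicate block and with both regions summed. It could not be fitted without either polyA replicate, for want of residual degrees of freedom. The share of polyA calls with the same sign in total RNA, 96.1%, was 97.6% with library size alone and 97.6% without the replicate block.

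The comparisons of 1 pair with the others were chosen after seeing the data. For polyA replicate 2, DESeq2's size factors in edgeR gave 20 higher and 4 lower, summed regions 36 and 9, DESeq2 3 lower and limma-voom 2 lower. For polyA replicate 1, library size alone gave 46 higher and 35 lower, DESeq2's size factors in edgeR 0 and 0, DESeq2 4 and 1, and limma-voom 158 lower. Over 104 named genes, 1409 of 1639 values kept their direction and their side of the threshold, 229 kept the direction but did not pass, 1 newly passed and 0 changed sign. The causes were not tested. Depth limits total RNA most, where a count of 0 without glucose allows up to 2.29 CPM.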

Other observations

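Genes of the list of general stress genes with the opposite sign in total RNA were at low levels. MOH1 went from 0.809, 1.36 and 10.7 CPM to 4.51, 4.59 and 3.82 CPM, and TKL2 from 1.62, 1.23 and 3.20 CPM to 4.51, 4.44 and 1.53 CPM. PAI3 went from 1.30, 1.36 and 2.13 CPM to 4.14, 4.74 and 0.764 CPM. The last values of TKL2 and PAI3 are below the 2.29 CPM that 3 counts are worth in that library.

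Genes outside the lists that were opposite in polyA pair 2 included SEO1, a permease, at 31.9, 13.7 and 28.3 CPM with glucose and 3.57, 17.5 and 7.64 CPM without. FRE1, an iron and copper reductase, went from 77.9, 90.0 and 83.2 CPM to 176, 89.1 and 364 CPM. It was higher in polyA pair 1 and in total RNA and level in polyA pair 2. These genes were chosen after their values were seen.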
